A study of Gallus gallus with 24 samples.

Results

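Cultures of retinal pigment epithelium (RPE) from E7 chick embryos that received both stimuli of the study, retinal conditioned medium and serum, were compared with E7 cultures that received neither. The arrays were taken by their labels: 3 arrays of rcSF3 with serum and 3 arrays of SF3, which makes 6 of the 24 arrays of the series. All probe sets other than controls were compared, 38439 in all, and 19220 of them had a mean signal high enough to be tested. The RPE was isolated on embryonic day 7 and grown on filters. The apical chamber held the serum-free medium SF3 or rcSF3, which is SF3 that had been conditioned by neural retina of E14 embryos. In all cultures the basal chamber held SF3 to which bovine pituitary extract had been added. Serum was added to the medium in the basal chamber. According to the paper, all arrays with serum came from cultures given the same lot. In later experiments the authors found that lots of serum differed in their effects on gene expression. Whether the changes with serum described below hold for other lots was not tested. The array label of rcSF3 with serum (CM-SER-SER) names serum more than once and was read as this medium because the other labels cover the other media. Each array held RNA of a separate preparation, pooled from several filters of 1 plating day. The sources used here do not say whether equal replicate numbers in different media mean a shared plating day. The same contrast in RPE of E14 embryos (6 arrays), and the E7 cultures that received only 1 of the stimuli (rcSF3 or SF3 with serum, 3 arrays each), were used to show where the response to both stimuli differed.

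The RPE is a pigmented monolayer between the photoreceptors and the choroid. It takes up retinol and rebuilds the visual chromophore, engulfs shed outer segments, moves ions, water and nutrients between retina and blood, and closes the outer blood-retinal barrier with tight junctions. In the embryo these functions mature while the epithelium faces the neural retina on one side, whose secretions are represented here by rcSF3, and blood-borne factors on the other, represented by serum in the medium.

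The signal of a probe set is in arbitrary units and each array had been scaled to a common level by the authors, so a signal is compared between cultures and not between genes. The median signal of the 24 arrays lay between 89.3 and 121, and the lowest mean signal kept for E7 was 91.5. Arrays of the same medium correlated with r between 0.979 and 0.986 over the probe sets kept, and arrays of rcSF3 with serum and of SF3 with r between 0.919 and 0.931. All of the 7 RPE markers examined had signals above the filter level in both media. In RNA of whole cultures, fewer cells of a type and less RNA per cell cannot be told apart. RPE65, the isomerase of the visual cycle, averaged 20500 ± 1800 in rcSF3 with serum and 11000 ± 2490 in SF3 (SD, n = 3 each), and the transcription factor OTX2 averaged 24900 ± 1100 in rcSF3 with serum and 25300 ± 2280 in SF3. The other markers, RLBP1, TYRP1, PMEL, BEST1 and MITF, had mean signals of 1290 (MITF) to 29800 (RLBP1) in rcSF3 with serum. A measure of RNA integrity moved with the comparison. The log2 ratio of 3' over 5' signal of the actin controls was 0.27 ± 0.10 in rcSF3 with serum and 0.75 ± 0.12 in SF3 (SD, n = 3 each), with no overlap between the media, and it was 0.63 ± 0.10 in rcSF3 and 0.37 ± 0.06 in SF3 with serum. For GAPDH the same ratio was -0.03 ± 0.05 in rcSF3 with serum and -0.14 ± 0.02 in SF3. The part of either ratio in the results below was not tested.

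With both stimuli together, 8141 of 19220 probe sets differed from SF3 (limma, adjusted p under 0.05), which is 42.4% of those tested. Of these, 3860 were higher (20.1%) and 4281 lower (22.3%) in rcSF3 with serum, and 1754 (9.13%) changed by at least 2-fold, 869 of them higher and 885 lower. Without adjustment 9636 had p under 0.05, and for 10377 (54.0%) the 3 arrays of one medium all lay above the 3 of the other. The median log2 fold change over all probe sets tested was -0.04, and the median size of a called change was 0.642. Bright probe sets were called more often than dim ones, from 23.0% of those with a mean signal up to 202 to 57.8% of those above 1290. Among 9108 named genes, each represented by its brightest probe set, 2118 were higher (23.3%) and 2043 lower (22.4%), and these shares are the background for every group of genes below. A further 3719 of the probe sets tested carried no single gene symbol. Of these 1491 were called, and 11 changed by at least 8-fold.

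**Figure D1:**
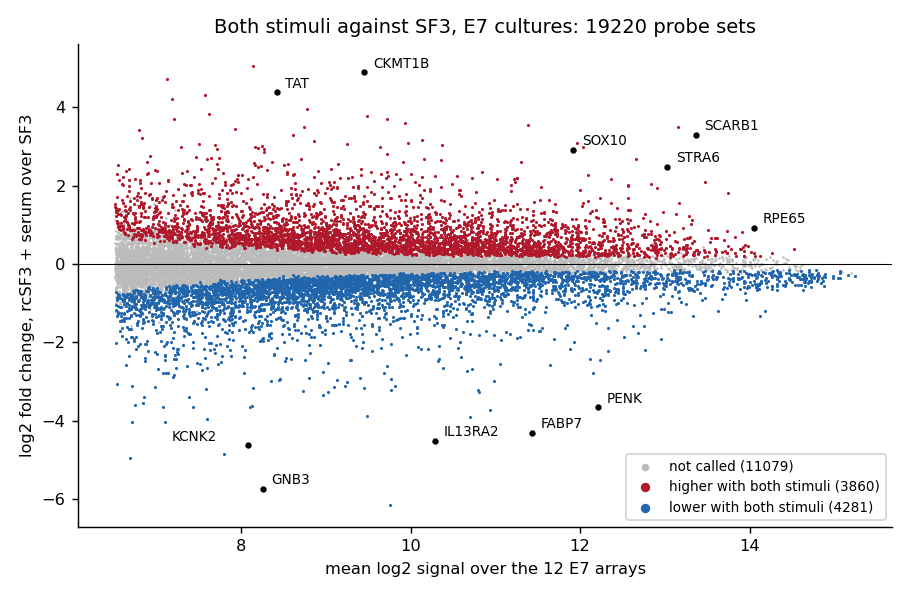
Each point is 1 of 19220 probe sets, with its mean log2 signal over the 12 E7 arrays on the horizontal axis and its log2 fold change, rcSF3 with serum over SF3, on the vertical axis. Red and blue points passed the test (3860 higher, 4281 lower), and changes of over 3 on the log2 scale were found among dim and bright probe sets alike, with RPE65 at 0.92 and SCARB1 at 3.30 near the bright end.

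The largest increase belonged to CKMT1B, which encodes a creatine kinase of mitochondria that stores phosphate energy as phosphocreatine. Its signal was 3750, 4570 and 4520 in rcSF3 with serum, against 171, 120 and 145 in SF3. All arrays with both stimuli stood far above all SF3 arrays, 29.6-fold on average (log2 4.89, SE 0.19, adjusted p = 2.8e-10). TAT, tyrosine aminotransferase, the enzyme that starts the breakdown of tyrosine, had 790, 676 and 1010 with both stimuli and 32.8, 53.7 and 34.1 in SF3. The SF3 signals lay below the level of the filter, and the log2 fold change of 4.38 (adjusted p = 3.5e-07) became 3.15 with signals under 91.5 raised to that level. IL1RL1, the receptor for an alarmin of the interleukin family, had 912, 698 and 899 with both stimuli, against 43.8, 53.1 and 31.8 in SF3. Its log2 fold change was 4.31, or 3.18 with dim signals raised (adjusted p = 2.9e-08).

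The 20 largest increases also held SCARB1 and RDH11. SCARB1, a receptor for high-density lipoprotein that also takes up carotenoids, was among the brightest genes that changed. Its signals of 28700, 27600 and 26800 in rcSF3 with serum stood against 3030, 2450 and 3000 in SF3 (log2 3.30, SE 0.09, adjusted p = 1.9e-11). RDH11, a retinol dehydrogenase, had 10200, 10800 and 11500 with both stimuli and 1450, 1270 and 1380 in SF3 (log2 2.98, adjusted p = 4.5e-10). The 3 replicates of each medium were close together for both genes.

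CA14, SLC18A2, SLN and CLDN1 were also among them. CA14, a carbonic anhydrase on the cell surface, had 3360, 3560 and 2920 with both stimuli and 249, 309 and 258 in SF3 (log2 3.59, adjusted p = 1.8e-09). SLC18A2, the vesicular monoamine transporter, had 634, 539 and 586 with both stimuli, against 80.5, 44.2 and 19.2 in SF3 (log2 3.84, or 2.68 with dim signals raised, adjusted p = 9.8e-07). SLN encodes sarcolipin, a small inhibitor of the calcium pump of the sarcoplasmic reticulum in muscle, and had 12300, 8830 and 8910 with both stimuli and 1110, 1010 and 1430 in SF3 (log2 3.08, adjusted p = 8.5e-09). CLDN1, a barrier-forming claudin of tight junctions, had 1700, 2220 and 1840 with both stimuli, against 198, 273 and 258 in SF3 (log2 2.99, adjusted p = 1.4e-06). SLC38A11, of a family of amino acid carriers, and GPER1, a membrane receptor for estrogen, had log2 fold changes of 2.71 and 2.69.

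The rest of the 20 largest increases began with SOX10 and KLF9. SOX10, a transcription factor known from neural crest and melanocytes, had 9760, 8400 and 9420 with both stimuli and 1440, 1360 and 930 in SF3 (log2 2.91, adjusted p = 2.4e-08), and its other probe set gave 3.03. KLF9, a zinc finger factor induced by steroid and thyroid hormones in mammals, had 831, 810 and 826 with both stimuli and 120, 102 and 89.3 in SF3 (log2 3.00, adjusted p = 2.2e-08). PDE1A (log2 3.69, or 2.18 with dim signals raised), a phosphodiesterase activated by calmodulin, ABI3 (3.69), an adaptor of actin regulation, TRIM2 (2.68), a ubiquitin ligase, COL24A1 (3.13), a fibrillar collagen, C1QTNF6 (2.86), a secreted protein of the C1q family, RGCCL (3.55) and LOC107049264 (3.09) complete the list. The values of LOC107049264 were uneven in SF3, at 928, 396 and 92.1, against 3610, 2650 and 2180 with both stimuli (SE 0.63, adjusted p = 0.0011).

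The largest decrease belonged to GNB3, the G protein beta subunit of cone photoreceptors. Its signal was 20.4, 13.2 and 148 with both stimuli, against 1460, 1990 and 2100 in SF3. Replicate 3 of rcSF3 with serum was the only one of its medium above the filter level, and the change (log2 -5.74, SE 0.59, adjusted p = 2.6e-06) became -4.09 with dim signals raised. PENK, proenkephalin, the precursor of opioid peptides, had 867, 1050 and 2150 with both stimuli and 16600, 16000 and 14800 in SF3 (log2 -3.66, adjusted p = 4.6e-08). NPTX2, a secreted pentraxin of synapses, had 286, 491 and 450 with both stimuli, against 7170, 5710 and 5320 in SF3 (log2 -3.92, adjusted p = 5.2e-10), and its other probe sets gave -3.87 and -2.78. For both genes the arrays of the media lay well apart, where non-overlap was a condition for this list. GABBR2, a subunit of the GABA-B receptor, PLXNA4, a semaphorin receptor, CABP1, a neuronal calcium-binding protein, and TMEM35A, a chaperone of acetylcholine receptors, had log2 fold changes of -3.65, -3.40, -3.11 and -3.39, and with dim signals raised TMEM35A was at -2.27. The second probe set of CABP1 gave -0.36 and was not called.

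Receptors and binding proteins fell as steeply. IL13RA2, a decoy receptor for an interleukin, had 334, 281 and 363 with both stimuli and 6440, 9080 and 7040 in SF3 (log2 -4.52, adjusted p = 8.8e-11). CXCR4, the receptor for the chemokine CXCL12, had 36.4, 16.1 and 39.5 with both stimuli, all under the filter level, against 647, 1110 and 938 in SF3 (log2 -4.94, or -3.26 with dim signals raised, adjusted p = 2.8e-07). KCNK2, a potassium channel that sets the resting potential, had 50.9, 63.0 and 43.3 with both stimuli, against 1200, 1290 and 1370 in SF3 (log2 -4.63, or -3.81 with dim signals raised, adjusted p = 1.6e-10). The fatty acid binding protein FABP7, typical of radial glia in the brain, had 528, 606 and 1100 with both stimuli and 15100, 13000 and 14100 in SF3 (log2 -4.31, adjusted p = 6.3e-08). FABP3, its relative from heart muscle, had 99.2, 111 and 89.4 with both stimuli and 900, 1500 and 1350 in SF3 (log2 -3.62, adjusted p = 3.6e-07). In none of these 5 genes did the media overlap, which was a condition for the list of largest changes. Over all probe sets tested 54.0% did not overlap.

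The remaining decreases among the 20 largest ranged from -3.64 to -3.16. They were LBP, which binds lipopolysaccharide, HESX1, a homeobox factor of the anterior forebrain, AMER2, a membrane adaptor of Wnt signaling, SLC25A25, a carrier of ATP across the inner mitochondrial membrane, the chemokine CCL4, LECT1 (chondromodulin), CAB39L, a partner of the kinase LKB1, and METAP1D, a mitochondrial aminopeptidase. With both stimuli LBP, HESX1 and AMER2 were under the filter level on every array, and their log2 values of -3.64, -3.60 and -3.54 became -2.53, -2.92 and -2.37 with dim signals raised. LBP was uneven, with 21.5, 53.2 and 66.5 in rcSF3 with serum against 446, 625 and 532 in SF3 (SE 0.62, adjusted p = 0.00028).

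**Figure D2:**
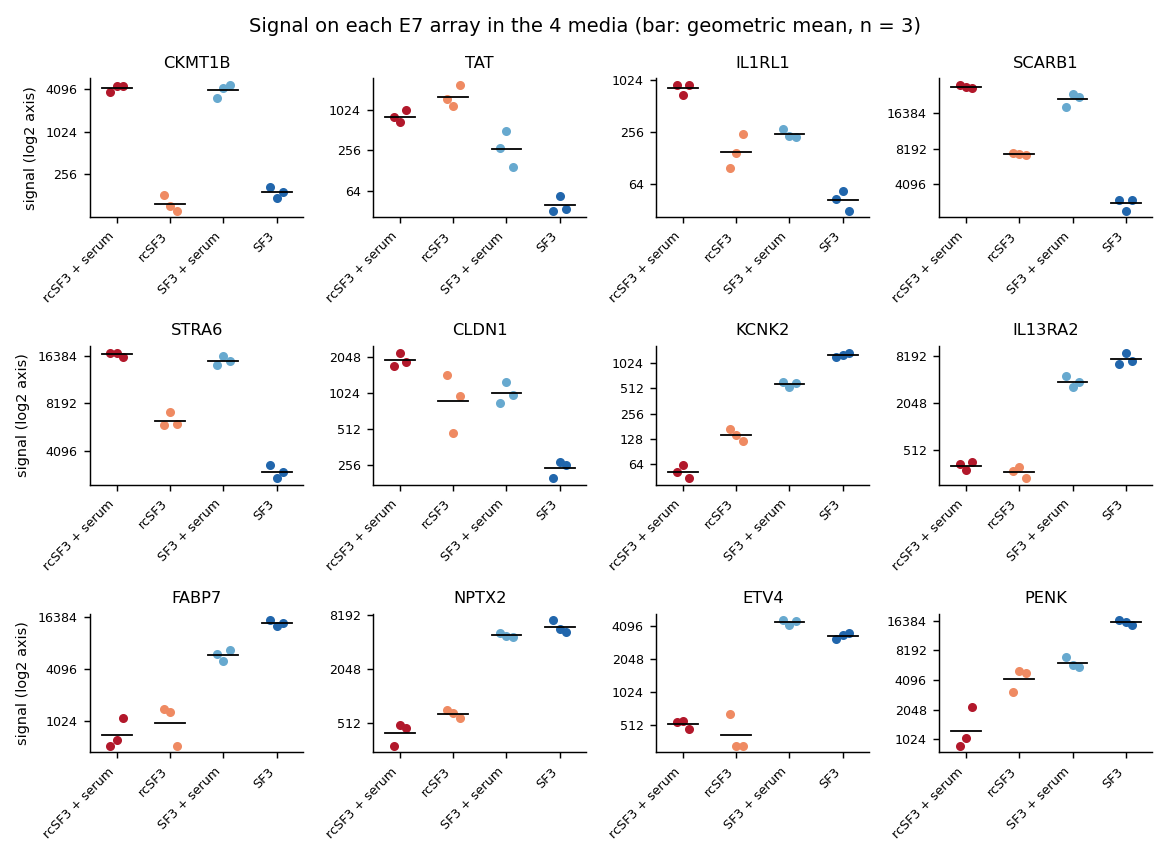
Signal of 12 genes on each E7 array (points, log2 axis) in rcSF3 with serum, rcSF3, SF3 with serum and SF3, with the geometric mean of 3 arrays as a bar. The 12 genes come from those chosen on the condition that the arrays of rcSF3 with serum and of SF3 do not overlap. This held for 54.0% of all probe sets tested. For CKMT1B the 2 media with serum stand together while for IL13RA2, FABP7, NPTX2 and ETV4 the 2 media with rcSF3 do.

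Setting each stimulus alone beside both shows how far a single one reached, although the 3 comparisons share the SF3 arrays. Against SF3, rcSF3 alone changed 5154 probe sets (26.8%) and serum alone 7358 (38.3%). Whether both stimuli differed from a single one was tested directly: 4029 probe sets (21.0%) differed from SF3 with serum, 2127 of them higher and 1902 lower with both stimuli, and 5915 (30.8%) differed from rcSF3, 2828 higher and 3087 lower. The departure of the combined response from the sum of the single ones, the interaction of serum and rcSF3, passed for 412 probe sets (2.14%), and 3218 had p under 0.05 without adjustment. The difference from SF3 with serum depended on single arrays: without replicate 1 of rcSF3 with serum 2326 probe sets were called (1138 higher, 1188 lower), and 2625 when replicate 3 of SF3 with serum was left out.

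Among the genes with the lowest p for the difference from rcSF3 alone, the signal was mostly reached with serum. Picking genes by that difference favors this pattern. CKMT1B had a log2 fold change of 4.79 with serum alone and -0.55 with rcSF3 alone, and both stimuli exceeded rcSF3 by 5.44 (adjusted p = 6.1e-10) and differed from serum alone by 0.09 (adjusted p = 0.78). ABI3 had 3.95 with serum alone and 0.51 with rcSF3 alone. BCAR1, a scaffold of focal adhesions (log2 1.05 with both stimuli), COL18A1, a collagen of basement membranes (1.34), S100A6, a calcium-binding protein (1.17), and IGSF9, an immunoglobulin family protein of dendrites (1.02), were each between 1.17 and 1.61 with serum alone and between -0.96 and -0.03 with rcSF3 alone. DIO3, the deiodinase that inactivates thyroid hormone, had 11100, 9400 and 7380 with both stimuli and 1160, 2330 and 1250 in SF3. Its log2 fold change was -1.45 with rcSF3 alone (adjusted p = 0.0012), 1.84 with serum alone and 2.61 with both, and the interaction of 2.22 passed the test (adjusted p = 0.0086).

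Among the genes with the lowest p for the difference from serum alone, the decrease was mostly reached with rcSF3. Picking genes by this difference favors such a pattern. NPTX2 was at -3.20 with rcSF3 alone and at -0.30 with serum alone (adjusted p = 0.18), and the difference between both stimuli and serum alone was -3.62 (adjusted p = 5.6e-09). For IL13RA2 the values were -4.80 with rcSF3 and -0.96 with serum. KCNK2 had -3.17 and -1.16, and both stimuli were below each of them (-1.46 against rcSF3 alone, adjusted p = 3.5e-05). ETV4, a transcription factor induced by FGF signaling, was at -3.0 with rcSF3 alone and 0.42 with serum alone, and CABP1 at -2.78 and 0.16. AMY1A, an amylase (log2 -2.21 with both stimuli), LIPG, endothelial lipase (-1.53), PLBD1, a phospholipase-like lysosomal protein (-1.98), PIK3R5, a regulatory subunit of phosphoinositide kinase (-1.35), and SLC25A25 (-3.34) were each lower with both stimuli than with serum alone, by log2 differences of -1.26 to -2.65.

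In a few genes, singled out after their values were seen, the response to both stimuli fell short of the sum of the single responses. TAT was at 5.36 with rcSF3 alone, 2.79 with serum alone and 4.38 with both (interaction -3.76, adjusted p = 0.0016). With signals under 91.5 raised, the interaction of TAT was -2.54 (adjusted p = 0.011). SCARB1 and STRA6 had interactions of -1.03 and -0.95 (adjusted p = 0.00087 and 0.00095), while for IL1RL1 the single values of 1.87 with rcSF3 and 2.54 with serum stood beside 4.31 with both (interaction -0.11, adjusted p = 0.92, or 1.02 with dim signals raised, adjusted p = 0.14). With dim signals raised, the interaction of EPHA3 was -2.77 (adjusted p = 3.8e-05). Those of CXCR4, HESX1 and SPP1 were positive, at 3.12, 2.92 and 2.23 (adjusted p = 3.8e-05, 7e-06 and 0.0017). With both stimuli, CXCR4 and HESX1 were under the filter level on every array. Raising their signals sets a lower limit, which favors a positive interaction where single stimuli also come near it. For CXCR4 and HESX1 the test cannot show whether the combined response fell short of the sum.

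**Figure D3:**
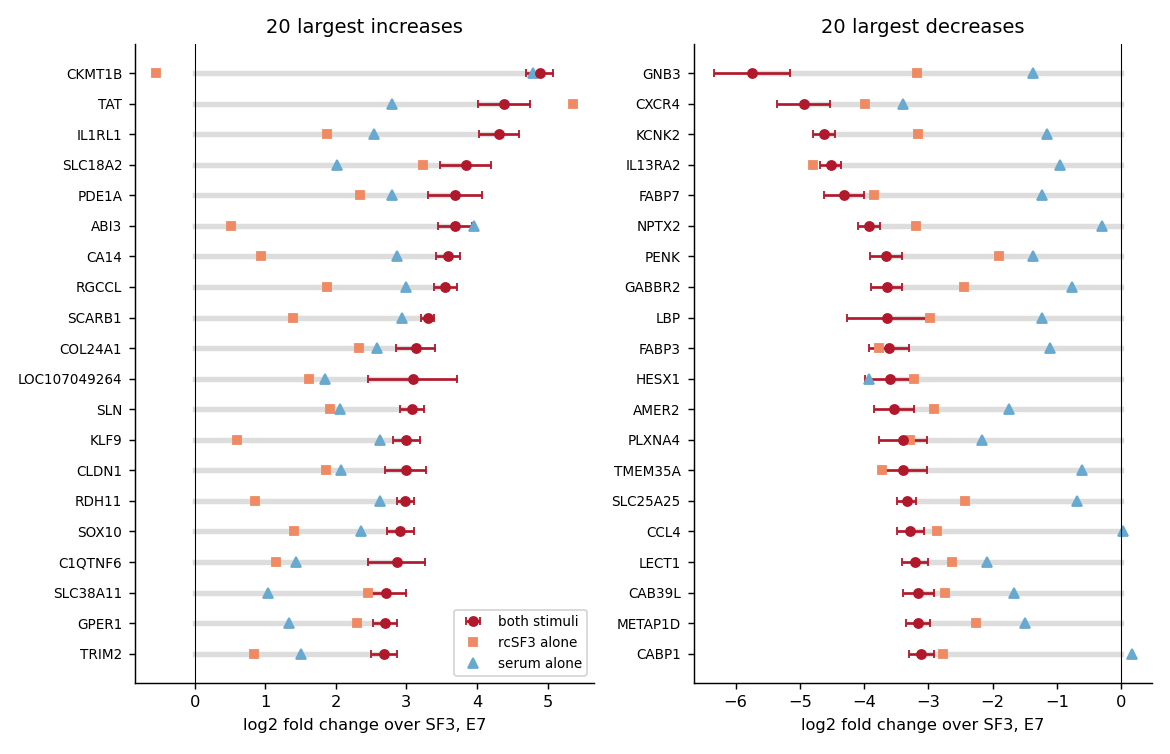
Log2 fold changes over SF3 in E7 cultures of the 20 largest increases (left) and the 20 largest decreases (right), with both stimuli (circles, error bars are SE), rcSF3 alone (squares) and serum alone (triangles). For CKMT1B and ABI3 the triangle lies at the circle, and for IL13RA2, FABP3 and PLXNA4 the square lies close to it.

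Most visual cycle genes were higher with both stimuli. Of 12 measured, 8 were higher and 3 lower (8 and 1 with quantile normalization), with a median log2 fold change of 0.64, against a median of -0.01 over all named genes. STRA6, the membrane receptor that takes up retinol from its carrier in blood, had 17000, 17200 and 16000 with both stimuli, against 3320, 2750 and 3030 in SF3 (log2 2.47, SE 0.09, adjusted p = 8.8e-11). TTR, transthyretin, which carries retinol binding protein and thyroid hormone, had 20500, 18600 and 17200 with both stimuli and 5550, 3430 and 4480 in SF3 (log2 2.09, adjusted p = 7e-08). RPE65 had 22400, 20300 and 18900 with both stimuli and 13900, 9540 and 9650 in SF3 (log2 0.92, adjusted p = 1.9e-05). In each of the 3 genes every array with both stimuli was above every SF3 array. Over all probe sets tested the media did not overlap for 54.0%. LRAT, which esterifies retinol for storage, rose by 1.5 and DHRS3, a retinal reductase, by 1.90. RLBP1, which binds the chromophore, had 31100, 29900 and 28400 with both stimuli and 37800, 36100 and 40000 in SF3 (log2 -0.35, adjusted p = 0.00033), but with quantile normalization it was no longer called (adjusted p = 0.37). RBP4, the plasma carrier of retinol, had 145, 189 and 245 with both stimuli and 685, 1570 and 351 in SF3 (log2 -1.94, adjusted p = 0.011), and lost its call without replicate 2 of SF3 (adjusted p = 0.072). RLBP1 and RBP4 were singled out after their values were seen, as were OCLN, CGN, MPP5, ALDH1A2, DUSP4, SPRED2, TYR, MITF, OTX2 and MERTK below.

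Genes that respond to retinoic acid, the acid form of retinol that drives nuclear receptors, had the highest median of all lists not made of cell markers, at 1.00, with 6 of 8 higher and 1 lower. Besides STRA6 and DHRS3, which this list shares with the visual cycle, the receptor RARB had 820, 763 and 829 with both stimuli and 232, 366 and 310 in SF3 (log2 1.43, adjusted p = 3.9e-06). RARA, another receptor of the same ligand, had a log2 fold change of 1.33 (adjusted p = 0.0025), and TGM2, a transglutaminase, of 0.49. The 1 lower member was ALDH1A2, a synthetic enzyme of retinoic acid (log2 -0.73). The list's median was 0.38 with rcSF3 alone and 1.14 with serum alone. Between both stimuli and serum alone 1 of the 8 differed, against 2073 of all 9108 named genes. Between both stimuli and rcSF3 alone 5 of the 8 differed, against 2988 of 9108.

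Pigment genes went both ways. Of 19 melanosome genes 4 were higher and 8 lower, with a median of -0.07, and with quantile normalization 5 were higher and 5 lower. OCA2, a melanosomal anion channel, had 1440, 1470 and 1420 with both stimuli and 516, 701 and 535 in SF3 (log2 1.32, adjusted p = 4.3e-06). GPNMB, a glycoprotein of melanosomes and lysosomes, had 4880, 4530 and 3860 with both stimuli and 12400, 18800 and 19200 in SF3 (log2 -1.90, adjusted p = 3.7e-06). MREG (-1.21) and RAB27A (-0.62), both of melanosome transport, were also lower. SLC24A5, an exchanger of melanosomes, was higher by its brighter probe set (1.53) and lower by the other (-0.94), so its direction is not settled. TYR, the rate-limiting enzyme of melanin synthesis, had a log2 fold change of -0.02 (adjusted p = 0.85). RAB38 had 554, 598 and 381 with both stimuli and 247, 356 and 498 in SF3, which overlap (log2 0.51, adjusted p = 0.10). It was called when replicate 3 of either medium was left out.

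The transcription factors of the RPE and eye field included 2 higher and 2 lower of 10, with 6 not passing the test. LHX2, needed for eye field and RPE specification, had 498, 559 and 542 with both stimuli and 1470, 1600 and 1590 in SF3 (log2 -1.54, adjusted p = 6.5e-08), and TFEC, a relative of MITF, was at -1.69 (adjusted p = 0.0030). The ventral optic factor VAX1 (1.28) and SIX3 (0.77) were higher. The values of PAX6 and OTX2 were 0.13 and -0.02 (adjusted p = 0.57 and 0.84), and a second probe set of OTX2 was called at 0.32. With quantile normalization the brightest probe set of OTX2 was called as well. MITF was at -0.03 (adjusted p = 0.88) by its brightest probe set, while its other 2 probe sets were called at -0.63 and -0.66. Of 14 genes for phagocytosis of outer segments, 2 were higher and 4 lower. The higher ones, PRKCD and LAMP1, lost their calls under 3 and 4 of 15 alternative settings. ANXA2, which was lower, lost its call with quantile normalization. CTSD, the main protease of phagolysosomes, had 20800, 20600 and 20000 with both stimuli and 32100, 31600 and 34500 in SF3 (log2 -0.68, adjusted p = 7.6e-07), and the receptor kinase AXL was lower by a similar amount (-0.55), whereas its relative MERTK had a log2 fold change of 0.05 (adjusted p = 0.74).

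Tight junction genes were called in both directions, 6 of 22 higher and 5 lower, close to the background shares. Apart from CLDN1, the increases were CLDN5, a claudin of tight barriers (1990, 1670 and 2040 with both stimuli, 816, 805 and 672 in SF3, log2 1.31, adjusted p = 3.9e-06), the tricellulin relative MARVELD3 (1.10), the adaptors CGN (0.87) and TJP3 (0.53), and OCLN, occludin (0.77). A second probe set of CLDN5 gave -0.03. The decreases were MARVELD2, tricellulin (-1.34), the polarity genes PARD3 (-0.66), MPP5 (-0.63) and CRB2 (-1.12), and CLDN12 (-0.69). CRB2 had 495, 482 and 382 with both stimuli and 903, 1100 and 953 in SF3 (adjusted p = 0.00013), and all 4 of its other probe sets were called lower. The calls of 3 of these genes depended on single arrays. TJP3 (adjusted p = 0.018), OCLN (0.021) and CLDN12 (0.024) each lost the call without replicate 2 of SF3 and without 2 or 3 other arrays, with adjusted p of up to 0.088, 0.089 and 0.10. CLDN2, CLDN4, CLDN8, CLDN20 and TJP1 had log2 fold changes between -0.35 and 0.26, none of which passed.

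Adhesion genes of the cadherin and catenin group were higher in 7 of 16 cases and lower in 1, with a median of 0.49. CDH13, a cadherin anchored by lipid, had 9220, 7900 and 8000 with both stimuli and 3530, 3440 and 1940 in SF3 (log2 1.54, adjusted p = 0.00017). The cadherin CDH4 (0.91), the desmosomal plaque protein PKP2 (0.60), and the catenins CTNNA2 (1.23) and CTNNA1 (0.46) were higher as well. Genes of actin nucleation and microvilli were split, 6 higher and 6 lower of 21. The formin FMN1, which nucleates actin filaments at junctions, had 5540, 5250 and 5370 with both stimuli and 1680, 1920 and 1980 in SF3 (log2 1.54, adjusted p = 2.1e-08), and EZR, ezrin, which links actin to the microvillar membrane, had a log2 fold change of 1.05. VIL1, villin, and the formin DIAPH3 were lower (-0.56 and -1.36). ACTR3, a core subunit of the Arp2/3 complex, had 3790, 3420 and 3730 with both stimuli and 3220, 2900 and 2920 in SF3 (log2 0.27, adjusted p = 0.0076), with a second probe set at 1.20. CDC42, a GTPase of polarity, differed by -0.02 (adjusted p = 0.85).

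Cytoskeletal targets of the serum response factor SRF included 6 of 14 higher and 1 lower, with a median of 0.35. FHL2, a cofactor of SRF, had 418, 382 and 364 with both stimuli and 79.5, 112 and 97.3 in SF3 (log2 2.03, adjusted p = 1e-06). The calponin CNN2 was at 1.43, the myosin kinase MYLK at 1.10, and TAGLN, transgelin, at 1.38. TAGLN varied between arrays, with 1040, 1300 and 1640 with both stimuli and 387, 858 and 379 in SF3. Immediate early genes were called 2 times in each direction out of 9. BTG2, which restrains proliferation, and the phosphatase DUSP1 were at -1.18 and -0.86. The higher ones were JUN and ZFP36L1. JUN lost its call under 8 of 15 alternative settings, and the other probe sets of ZFP36L1 (0.16 and 0.52) did not pass.

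The feedback genes of FGF and MAPK signaling were called in 1 direction only, with 10 of 12 lower, 0 higher, and a median of -0.62. These genes are induced by the pathway and several of them restrain it. ETV4 had 540, 558 and 475 with both stimuli and 3090, 3360 and 3510 in SF3 (log2 -2.66, adjusted p = 7e-08). DUSP6, a phosphatase of the kinase ERK, had 869, 933 and 840 with both stimuli and 3310, 2840 and 3170 in SF3 (log2 -1.82, adjusted p = 6.3e-07). ETV5 (-0.89), the receptor antagonist IL17RD (-0.76) and CCND1, cyclin D1 (-0.40), were also lower, and the 2 uncalled members, DUSP4 and SPRED2, had log2 fold changes of -0.50 and -0.36. The list's median was -0.60 with rcSF3 alone and 0.04 with serum alone. Between both stimuli and serum alone 9 of the 12 differed, against 2073 of all 9108 named genes.

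Of 19 targets and regulators of BMP and TGF-beta signaling, 8 were lower and 3 higher. ID1, an inhibitor of differentiation factors and a direct BMP target, had 274, 377 and 322 with both stimuli and 1180, 1690 and 648 in SF3 (log2 -1.76, adjusted p = 0.00027). ID2 (-0.91) and the inhibitory SMAD6 (-0.69) were lower, whereas ID4 (0.97) and the matrix protein TGFBI (0.70) were higher. Among Notch genes, the ligand JAG2 was at -2.04, its modifier LFNG at -1.04 and the target HEY1 at 1.35 (adjusted p = 0.00028, 0.00073 and 7.4e-06), with 2 of 6 higher and 3 lower. The other higher Notch gene, NOTCH2, lost its call under 8 of 15 alternative settings. Of 15 Wnt genes 3 were higher and 3 lower. NKD1, which was higher, and WNT6, which was lower, lost their calls under 2 and 4 of 14 alternative settings. TNFRSF19 was higher, but its other probe sets (0.31 and 0.22) did not pass. The feedback gene AXIN2 had 589, 525 and 629 with both stimuli and 243, 223 and 291 in SF3 (log2 1.21, adjusted p = 1e-05), and the receptor FZD1 was at -0.67. Of 8 YAP and TEAD targets 2 were higher and 4 lower, with F3, tissue factor, at 1.57 and AMOTL2 at -0.65.

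Guidance receptors of the Eph family and their ephrin ligands were higher in 6 of 12 cases and lower in 1. EPHA5 had 483, 344 and 393 with both stimuli and 136, 119 and 126 in SF3 (log2 1.67, adjusted p = 4.8e-06). EPHA7 (2.43, or 0.92 with dim signals raised) and EPHA3 (1.03) were higher, and EPHB2 was at -1.62, although 2 other probe sets of EPHB2 gave 0.28 and -0.11 and were not called. In the insulin-like growth factor system 3 of 10 were higher and 1 lower, with the binding proteins IGFBP2 and IGFBP4 at 1.16 and 0.87 and the receptor substrate IRS2 at -0.81, although its other probe sets (0.04 and -0.28) did not pass.

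Cytokine and chemokine genes were called in 17 of 21 cases, 9 higher and 8 lower. The suppressor of cytokine signaling SOCS1 had 1030, 1050 and 1080 with both stimuli and 377, 281 and 334 in SF3 (log2 1.68, adjusted p = 2.7e-07), and TNFRSF21, a death-domain receptor, was at 1.27. SPP1, osteopontin, had 694, 1200 and 1150 with both stimuli and 6530, 8520 and 4600 in SF3 (log2 -2.68, adjusted p = 4.7e-07). Together with CXCR4 and IL13RA2 it made the 3 strongest decreases of the list, of which CCL4 is not a member. Of 5 interferon-stimulated genes, OASL was lower (-2.07) and EIF2AK2, the kinase that senses viral RNA, was higher (0.55, adjusted p = 0.047), a call lost without any of 5 single arrays (adjusted p up to 0.15).

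Basement membrane genes were higher in 9 of 18 cases and lower in 3, with a median of 0.33. NID1, nidogen, which ties laminin to collagen IV, had 4790, 4600 and 4300 with both stimuli and 882, 1480 and 774 in SF3 (log2 2.18, adjusted p = 2.9e-07). COL18A1 had 5350, 5080 and 5780 with both stimuli and 2120, 2260 and 2010 in SF3, and COL4A5 and LAMA5 rose by 0.78 and 0.63, although the other probe sets of COL4A5 (0.23 and -0.06) did not pass. LAMA3, an epithelial laminin chain, had 74.6, 110 and 99.4 with both stimuli and 393, 434 and 439 in SF3 (log2 -2.18, adjusted p = 3.3e-06). Genes of the interstitial matrix were split evenly, 8 higher and 7 lower of 27. LOXL2, which crosslinks collagen, had 3300, 3380 and 2500 with both stimuli and 565, 531 and 383 in SF3 (log2 2.64, adjusted p = 4e-08). DCN, decorin (2.38), was higher, while COL3A1 (-1.27), COL5A2 (-0.93) and the fibrillin FBN2 (-0.96) were lower.

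Among 17 matrix receptors 5 were higher and 3 lower. CD44, the hyaluronan receptor, had 833, 1170 and 931 with both stimuli and 2330, 2830 and 2840 in SF3 (log2 -1.46, adjusted p = 2e-07), and ITGA6, a laminin-binding integrin chain, was at -0.67. DAG1, dystroglycan, which binds laminin, was at 1.10 and the kinase ILK at 0.76. Of 19 proteases and inhibitors 4 were higher and 8 lower, among them ADAMTS3, which trims procollagen (-1.69), ADAM10 (-0.64), PLAU, urokinase (-0.90), and TIMP2, an inhibitor of matrix metalloproteinases (0.59).

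**Figure D4:**
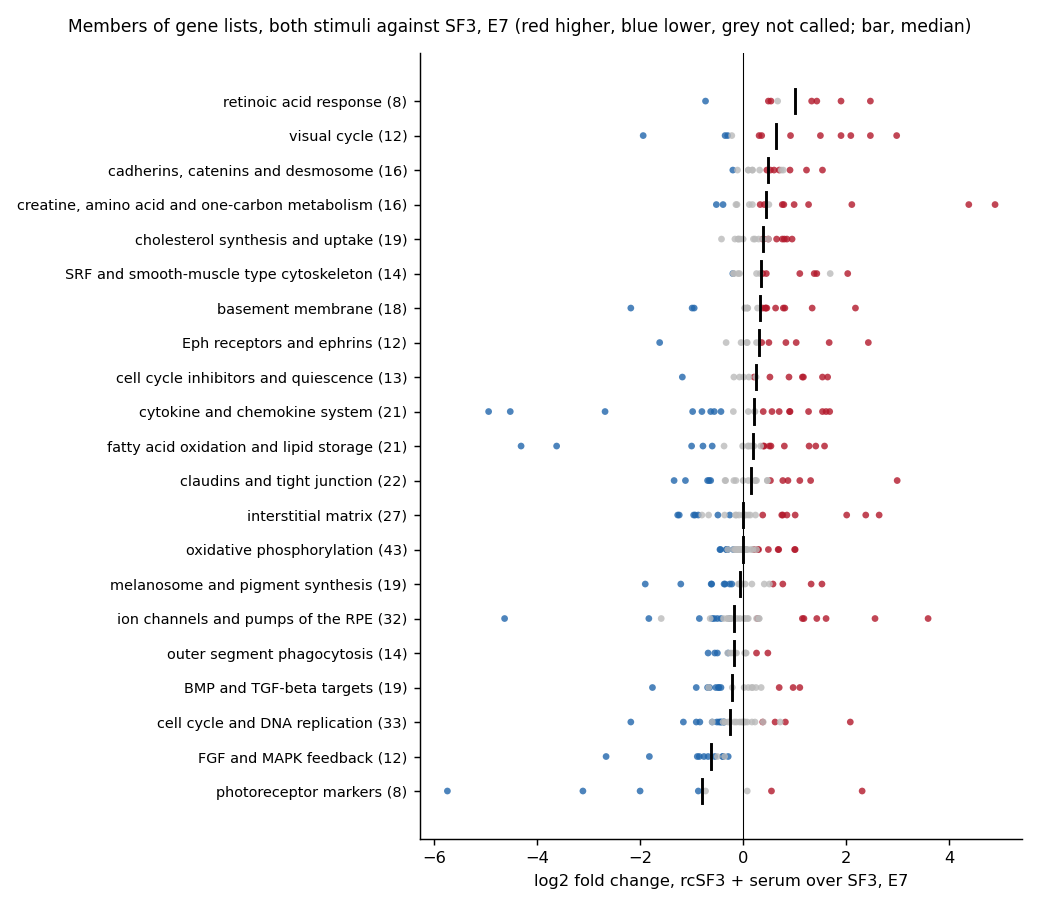
Log2 fold change, rcSF3 with serum over SF3 in E7 cultures, of the measured members of 21 gene lists (1 point per gene, number of genes in parentheses), ordered by list median (bar). Red and blue points passed the test. The lists of FGF and MAPK feedback (10 of 12 lower) and of photoreceptor markers lie lowest, and those of retinoic acid response (6 of 8 higher) and the visual cycle (8 of 12) highest.

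Ion channels, pumps and carbonic anhydrases of the RPE were called 7 times higher and 8 times lower out of 32. Apart from CA14 and KCNK2, the potassium channel KCNQ1 had 844, 722 and 744 with both stimuli and 107, 137 and 151 in SF3 (log2 2.56, adjusted p = 4.4e-08). The bicarbonate cotransporter SLC4A7 had 9000, 8090 and 7750 with both stimuli and 4000, 3190 and 4030 in SF3 (log2 1.15, adjusted p = 1.4e-07), and the anion exchanger SLC4A2 was at 1.43. BEST1, a chloride channel of the basolateral RPE membrane, had 5510, 5060 and 4220 with both stimuli and 5300, 6010 and 5920 in SF3. These overlap, and the log2 fold change of -0.23 did not pass (adjusted p = 0.14). Likewise KCNJ3, KCNJ5, CACNA1C, ATP2B1 and SLC24A2 were dim and uncalled, with values between -1.59 and 0.02. However, a second probe set of KCNJ5 was called at -2.01, and its brightest probe set was called with dim signals raised.

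Carriers of sugars and monocarboxylates were higher in 5 of 14 cases and lower in 2 (7 and 1 with quantile normalization). The facilitative carrier SLC2A11 had 2600, 2450 and 2650 with both stimuli and 859, 1050 and 1360 in SF3 (log2 1.26, adjusted p = 3.2e-06), SLC2A12 was at 1.31, and the sodium-coupled SLC5A1 at 1.26. SLC16A9, of the monocarboxylate carrier family, had 779, 888 and 784 with both stimuli and 219, 195 and 173 in SF3 (log2 2.07, adjusted p = 5.7e-08). The main carriers SLC2A1 and SLC16A1 had bright and overlapping signals, with log2 fold changes of -0.08 and 0.11 (adjusted p = 0.27 and 0.16). With quantile normalization both were called, so the absence of a call depends on the scaling. Amino acid and monoamine carriers were higher in 8 of 21 cases and lower in 4, with SLC7A10 at 1.06 and SLC7A3 at 1.08, and with SLC38A2, a neutral amino acid carrier, at -1.80 and SLC6A6, the taurine carrier, at -0.75.

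Genes of creatine and amino acid metabolism were higher in 9 of 16 cases and lower in 2, with a median of 0.45. Besides CKMT1B and TAT, PHGDH, the first enzyme of serine synthesis, had 324, 418 and 297 with both stimuli and 32.0, 154 and 102 in SF3 (log2 2.11, adjusted p = 0.00079), and ARG2, a mitochondrial arginase, was at 0.79. The cytosolic creatine kinase CKB was at -0.39, a call lost with quantile normalization (adjusted p = 0.18). In cholesterol synthesis and uptake 8 of 19 were higher and 0 lower, with a median of 0.38. MSMO1, a sterol oxidase, had 12000, 9570 and 8930 with both stimuli and 4700, 5890 and 6370 in SF3 (log2 0.85, adjusted p = 0.00013). PMVK and LSS, a kinase and a cyclase of the pathway, were at 0.95 and 0.80, and the regulators SREBF2 and INSIG2 at 0.49 and 0.38.

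Fatty acid genes were mixed. For oxidation and storage, 8 of 21 were higher and 5 lower. PLIN2, which coats lipid droplets, had 10800, 12300 and 10000 with both stimuli and 4350, 4640 and 4600 in SF3 (log2 1.28, adjusted p = 1.3e-08). The secreted lipase inhibitor ANGPTL4 (1.58) and the coactivator PPARGC1A (1.41) were higher, against the large decreases of FABP7 and FABP3. For synthesis, 6 of 15 were higher and 4 lower, with ELOVL2, an elongase of polyunsaturated fatty acids, at 1.42 and ELOVL6, an elongase of saturated ones, at -1.02. FASN, fatty acid synthase, was at -0.58. Of 17 glycolysis genes 2 were higher and 4 lower, against 4 higher and 1 lower with quantile normalization, and LDHA (-0.33) and ENO1 (-0.36) lost their calls with quantile normalization. Of 43 genes of oxidative phosphorylation 8 were higher and 7 lower (12 and 6 with quantile normalization). NDUFA5 and NDUFS4, of complex I, were at 1.00 and 1.01.

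Cell cycle and replication genes were lower in 12 of 33 cases and higher in 4, with a median of -0.26. With quantile normalization 9 were lower and 4 higher, with a median of -0.19. CDK1, the kinase of mitosis, had 508, 504 and 559 with both stimuli and 673, 847 and 728 in SF3 (log2 -0.51, adjusted p = 0.0072), and BUB3, of the spindle checkpoint, was at -0.37. HMGB2, a chromatin protein of dividing cells, went the other way, with 1200, 1010 and 950 with both stimuli and 214, 323 and 219 in SF3 (log2 2.08, adjusted p = 9.7e-08). Inhibitors of the cycle and genes of quiescence were higher in 7 of 13 cases and lower in 1. CCNG2, a cyclin that rises on cell cycle arrest, had 4140, 3820 and 3630 with both stimuli and 1420, 1300 and 1260 in SF3 (log2 1.54, adjusted p = 2.1e-08). GAS2, a growth arrest gene of the cytoskeleton, the transcription factor FOXO1 and the kinase inhibitor CDKN1B rose by 1.64, 1.17 and 0.52.

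In stress responses, the antioxidant genes held 8 higher and 5 lower of 25 (8 and 2 with quantile normalization). GSTA4, which detoxifies lipid aldehydes, had 13400, 11400 and 12200 with both stimuli and 3420, 2580 and 3750 in SF3 (log2 1.94, adjusted p = 2.6e-08). The enzymes of glutathione synthesis GCLC (1.26), GSS (0.88) and GCLM (0.81) and the quinone reductase NQO1 (1.15) were higher. Of 20 heat shock genes 5 were higher and 8 lower, with HSPA4 at -1.30, HSPA8 at -0.58 and HSPB1 at 1.48. Of 18 genes of the unfolded protein and amino acid response 5 were higher and 6 lower, and the chaperones of the endoplasmic reticulum HSP90B1 and HSPA5 were at -0.98 and -0.79. Secreted vascular factors were higher in 5 of 17 cases and lower in 1. VEGFC, a lymphatic growth factor, had 3590, 3580 and 3510 with both stimuli and 1640, 1510 and 1580 in SF3 (log2 1.17, adjusted p = 2.5e-07), SEMA3D was at 1.45, and FGF1 at -1.60.

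A gene's probe sets did not always give the same result. Besides genes for which this is given above, another probe set did not pass for LFNG (-0.01), FZD1 (-0.12), SLC4A2 (-0.16), FGF1 (-0.02), HSP90B1 (-0.06), CDH4 (0.39), CTNNA1 (0.32), PLIN2 (0.44), CCND1 (-0.23) and GSS (0.53), so their changes rest on the brightest probe set. For ETV5 (-0.09), ID2 (-0.56), AMOTL2 (-0.49), FBN2 (-0.67), CD44 (-0.38), DAG1 (0.55), LSS (0.34), SLC5A1 (0.23), SLC6A6 (-0.30) and SLC7A3 (-0.26 and 0.57) some other probe sets did not pass while at least 1 passed in the same direction. Raising dim signals lowered the size of JAG2 to -1.57, of DCN to 1.83, of PHGDH to 1.6 and of CNGA3, described next, to -1.63.

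Markers of other cell types were examined as whole lists. A sum of signals over a list is set mostly by its brightest probe sets, and is not a measure of the amount of a cell type. Of 17 photoreceptor markers on the array 8 were bright enough to test, 2 higher and 4 lower, and the sum of their signals was 1310 to 1980 in rcSF3 with serum and 5850 to 6360 in SF3. GNB3 and GNAT2, cone transducin subunits, made up most of the sum in SF3. GNAT2 had 265, 334 and 378 with both stimuli and 3320, 2510 and 2580 in SF3 (log2 -3.11, adjusted p = 6.8e-08), and CNGA3, the cone channel, was at -2.0. PDE6G, a subunit of the photoreceptor phosphodiesterase, was at -0.87 and PDE6H, its cone relative, at 2.31 (1.33 with dim signals raised), and both lost the call without single arrays (adjusted p up to 0.068 and 0.080). The defining genes SAG, GNAT1, PDE6B, PDE6C and CNGA1 were under the filter level in both media. The part of photoreceptors or their RNA in the results was not tested.

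For the other lists the sums moved less or rested on few genes. Neuron markers (7 of 18 bright enough, 3 higher, 1 lower) summed to 5320 to 5480 in rcSF3 with serum and 3280 to 3870 in SF3. SYP and CALB2 were at 1.97 and 1.34, while ELAVL4 was lower (mean 145 with both stimuli, 361 in SF3). SNAP25 was not called, while its other probe sets gave -0.56 and -0.54 (called) and 0.06 and 0.60 (not called). STMN2, which averaged 49.9 with both stimuli and 125 in SF3, NEFL, NEFM and GAP43 were below the filter over the E7 arrays. Glia markers (5 of 10, 1 higher, 2 lower) summed to 32000 to 35700 with both stimuli and 46700 to 48500 in SF3, a difference carried by FABP7, while GFAP and SLC1A3 were below it. The 3 melanocyte and neural crest markers above it, of 8, summed to 9020 to 10300 with both stimuli and 1240 to 1810 in SF3, through SOX10. EDNRB was at 0.91, and FOXD3 and KIT were below it. PAX3, below the filter over the E7 arrays, averaged 105 with both stimuli and 56.4 in SF3. Lens markers (6 of 13, 3 higher, 0 lower) summed to 2600 to 3020 with both stimuli and 1240 to 1420 in SF3, mostly through ASL1, delta crystallin (2.37), and MIP (0.99). Other crystallins had lower means with both stimuli: CRYBB1 (146, against 189 in SF3) and CRYBA4 (219 and 242), neither called. CRYAA, below the filter over the E7 arrays, averaged 41.1 with both stimuli and 103 in SF3.

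Fibroblast markers (13 of 20, 4 higher, 2 lower) summed to 11600 to 14600 with both stimuli and 11600 to 15700 in SF3, which overlap, although COL1A1 was at 2.01 (adjusted p = 0.00013) and COL3A1 at -1.27. LUM, TWIST1 and PDGFRA were below the filter. Endothelial markers (5 of 14, 1 higher, 1 lower) summed to 2840 to 3180 with both stimuli and 1950 to 2410 in SF3, through CLDN5. EGFL7 was lower (mean 168 with both stimuli, 337 in SF3), and CDH5, KDR, TIE1 and VWF were below the filter. Blood and macrophage markers (3 of 11, 1 higher, 1 lower) summed to 4510 to 4810 with both stimuli and 6440 to 7680 in SF3, through CD74. CSF1R was higher (mean 1080 with both stimuli, 512 in SF3), although its other probe sets (0.32 and 0.41) did not pass. PTPRC, SPI1 and the globins HBA1 and HBAD were below the filter. The part of these cell types in the results was not tested.

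RPE of E14 embryos given the same 2 stimuli changed 5981 of 20022 probe sets (29.9%) against its own SF3 cultures, and the responses of E7 and E14 cultures differed for 2321 (11.6%), 1292 of them more positive and 1029 more negative in E7. Over 18418 probe sets measured at both ages the responses correlated with r = 0.612 and Spearman rho = 0.583, a description across probe sets, which were measured on the same arrays within each age and are not independent replicates. Of the 7929 probe sets called at E7 in this set and the 5783 called at E14, 3807 were called at both ages, 48.0% and 65.8% of each, and 3631 of these had the same direction.

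The genes with the lowest p for the age difference mostly rose more in E7 cultures. They were picked among genes called in E7 whose E7 arrays did not overlap. They also had to change at least 2-fold in E7 with dim signals raised. Picking genes this way favors larger responses in E7. SCARB1 rose by 3.30 in E7 and 1.22 in E14 (difference 2.08, adjusted p = 8.6e-09). RGCCL was at 3.55 and 0.71 (difference 2.84), RDH11 at 2.98 and 0.71 (2.28) and SLN at 3.08 and 0.52 (2.55). TTR rose by 2.09 in E7 and had -0.09 in E14 (adjusted p = 0.64 for E14, difference 2.18, adjusted p = 7.5e-08). GSTA4 had 1.94 and 0.26 (difference 1.68). For SLC4A7, COBLL1, a protein with an actin-binding domain, and DEPDC1, a gene of mitosis, the response was positive in E7 (1.15, 1.25 and 1.47) and negative in E14 (-0.39, -0.34 and -0.93). IL13RA2 was lower at both ages, at -4.52 in E7 and -1.0 in E14 (difference -3.52). RPE65 was among the genes that differed, at 0.92 in E7 and -0.24 in E14 (adjusted p = 2.8e-05 for the difference), and BEST1 gave -0.23 and 0.28 (adjusted p = 0.036).

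CXCR4 and HESX1, which fell in E7 cultures, had log2 values of 0.25 and -0.05 in E14 cultures, where their signals were mostly under the filter level in both media. The differences of -5.20 and -3.55 (adjusted p = 0.00011 and 0.00048) became -3.26 and -2.84 with dim signals raised (adjusted p = 1.9e-09 and 2.1e-09). Raising sets most E14 signals, and the E7 signals with both stimuli, to the same level and so shrinks their spread. The lower adjusted p with raising is therefore no added support for an age difference. Other leading E7 responses were of a size in E14 that the test did not separate, among them METAP1D (-3.16 in E7, -3.13 in E14, adjusted p = 0.98 for the difference), KLF9 (3.00 and 2.45, adjusted p = 0.23), DIO3 (2.61 and 3.21, adjusted p = 0.37), SOX10 (2.91 and 2.29, adjusted p = 0.12), PENK (-3.66 and -2.91, adjusted p = 0.18) and FABP7 (-4.31 and -2.92, adjusted p = 0.21). Among the lists, the median of cholesterol synthesis was 0.38 in E7 and 0.95 in E14, with 7 of 19 genes different between the ages, that of the visual cycle 0.64 and 0.04 with 5 of 12, that of FGF and MAPK feedback -0.62 and -0.19 with 3 of 12, and that of photoreceptor markers -0.80 and -1.76 with 0 of 8. Over all named genes 1299 of 9108 differed between the ages, and the counts of these small lists were not tested against that share.

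**Figure D5:**
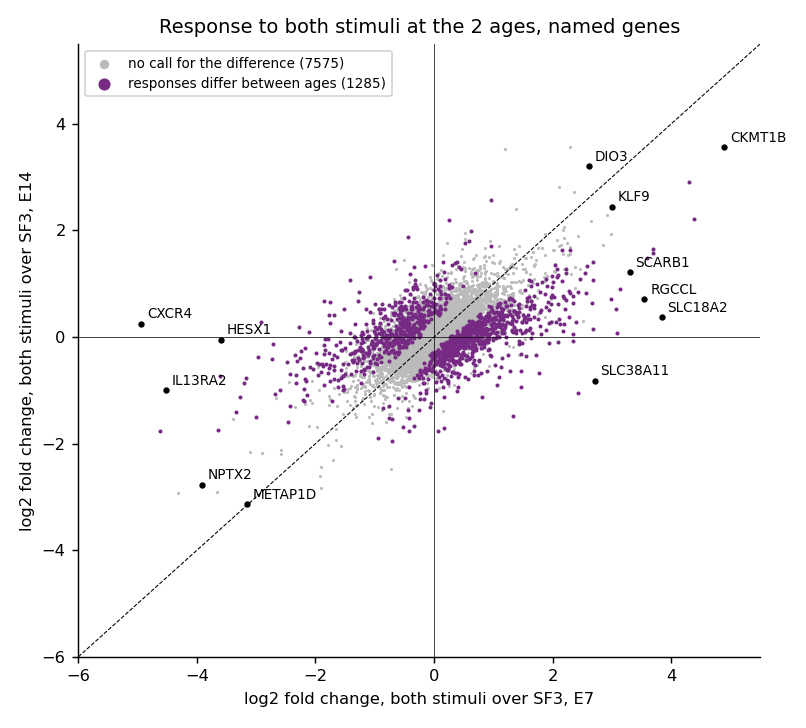
Log2 fold change with both stimuli over SF3 in E7 (horizontal) and E14 cultures (vertical) for 8860 named genes measured at both ages. The 1285 genes that differed between the ages by the test of the difference are purple, some labelled genes are black, and the dashed line marks equal responses, so that SCARB1, RGCCL, SLC18A2 and SLC38A11 lie below it at the right, CXCR4 and HESX1 lie near 0 for E14 at the left, and METAP1D lies on it.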

How the data were processed

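RNA of 24 chick RPE cultures, 3 preparations for each of 8 groups (2 ages, 4 media), had been hybridised to 1-colour chicken genome arrays. The authors deposited 1 signal intensity per probe set and array on a linear scale, made with Affymetrix software and scaled to a common level. Signals were converted to log2, 96 of 38535 probe sets were left out as controls, and the 50% with the highest mean over the E7 arrays were kept. Genes were named from the platform annotation: 27168 probe sets had 1 symbol, 177 several and 11094 none, and 26853 symbols matched RefSeq. A gene was represented by its brightest kept probe set.

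Media were compared with limma 3.58.1 (R 4.3.3), with an intensity trend, in 1 fit over the 12 E7 arrays and Benjamini-Hochberg adjustment at 0.05. Ages were compared in a fit over 24 arrays. Adjusted p-values are from these fits and are two-sided. The steps were tested on simulated data. The genes named include the 20 largest changes in each direction. These were taken among called E7 genes whose arrays did not overlap, with at least 2-fold change when dim signals were raised. The 10 lowest p of each difference from 1 stimulus and between ages were taken under the same conditions. Genes the study discusses and members of lists were also named, with a few singled out after their values were seen. The comparison and the lists were chosen with earlier results of these data known. Alternatives were quantile normalization, other filters and moderation, other sets of arrays, a replicate block, other probe sets and leaving out each array. The number of arrays limits the precision.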

Additional observations from a re-analysis of the deposited data

Results flagged for a closer look

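The response to both stimuli differed between the ages for 2321 probe sets by the test of the difference (limma, adjusted p under 0.05, 24 arrays). The 10 genes with the lowest p were picked among named genes that met the conditions for the list of largest E7 changes. This favors larger responses in E7. Their log2 differences, E7 minus E14, were SCARB1 2.08, RGCCL 2.84, SLC4A7 1.55, COBLL1 1.59 and DEPDC1 2.40. The others were TTR 2.18, RDH11 2.28, IL13RA2 -3.52, SLN 2.55 and GSTA4 1.68. Groups of 3 arrays were not tested for single arrays that stand apart.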

How the results depend on the processing

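Of the 287 named genes 248 were called, 226 of them under each of up to 15 settings, and 22 lost the call under at least 1. Of the 39 genes not called, 9 gained a call under at least 1 setting. Over all 9108 genes with a symbol and a kept probe set, 45.7% were called. Many of the 287 were picked because they were called or had a low p, which favors calls that hold. Their share does not describe all calls. Keeping only the brightest 25% of probe sets left 5295 of 9610 called, and 711 called and at least 2-fold. Without a filter 2405 were called and at least 2-fold, against 1754. Leaving out each array in turn gave 6861 to 7447 called, 1750 to 1871 at 2-fold or more, 4431 to 5099 against rcSF3 alone and 1696 to 2230 between ages. Against serum alone the range was 2326 to 3815, where replicate 1 of rcSF3 with serum, when left out, gave 2326 and replicate 3 of SF3 with serum 2625, and the cause was not tested. Same-numbered preparations of rcSF3 with serum and SF3 deviated together with r of 0.01 to 0.10, and those of rcSF3 and SF3 with r of 0.14 to 0.20, against -0.14 to -0.04 for other pairs of these media. The replicate block gave 8412 called, 1759 at 2-fold or more, 4343 against serum alone, 6233 against rcSF3 and 2509 between ages. Chosen after seeing the data, it gave 5487 for rcSF3 alone, 7611 for serum alone and 502 for the interaction, each within 1.5 times the count without it. With quantile normalization ANXA2 turned to 0.05 and TYRP1 to 0.11. Another probe set was called in the opposite direction for SLC24A5 (-0.94), NOTCH2 (-0.86), INSR (-0.69), NDUFA9 (0.61), CCND2 (0.20) and DNAJB9 (0.50). The interaction and age differences with dim signals raised were also chosen then. Dim signals limit the size of a fold change.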
